A study of Homo sapiens with 8 samples.

Results

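The genes described here are the drug efflux pumps ABCB1, ABCC1, ABCC2, ABCC3, ABCC4, ABCC5 and ABCG2, the ester hydrolases CES2 and ESD, and the glucuronosyltransferase UGT1A6. They were chosen by symbol, as the rows of the count table that carry these names, and are 10 of its 55679 gene identifiers. Of these, 7 encode exporters and 3 encode enzymes. Over the 8 libraries, 8 of them reached a mean of 1 CPM (the counts on a gene in a library scaled to 1000000 counts on genes), as did 14030 genes in all. ABCG2 and UGT1A6 stayed under it.

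Acetalax (oxyphenisatin acetate) is an acetate ester of a phenolic compound. Esterases such as CES2, a carboxylesterase of the endoplasmic reticulum, and ESD, a cytosolic hydrolase also known as S-formylglutathione hydrolase, cleave ester bonds. UGT1A6 joins glucuronic acid to small phenols, and such conjugates are substrates of exporters of the ABCC family. ABC transporters use ATP to move drugs, lipids or conjugates across membranes, and ABCB1 (P-glycoprotein) and ABCG2 are best known for removing unmodified drugs from cells.

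RNA was sequenced from MDA-MB468 and BT549, both triple-negative breast cancer cell lines, as parental cells and as cells chronically exposed to Acetalax (CE cells). The CE cells were grown with doubling concentrations from 0.2 μmol/L, stopped growing at 51.2 μmol/L, were taken from the 40 μmol/L exposure, and had been free of drug for 2 weeks. Each of the 4 backgrounds gave a control library without drug and a library after 1 μmol/L Acetalax for 6 hours. Every condition was thus 1 library, and 1 CE selection stood for each line, so a difference between CE and parental cells of a line is a difference between cell populations and carries no replicate of the selection.

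The libraries held from 42261122 to 54241728 counts on genes, so that the limit set by a count of 0 (3 counts) lay between 0.0553 and 0.0710 CPM. Intervals given with levels and ratios are 95% intervals for counting error only. The line labels were checked against marker genes: EPCAM lay between 409 and 439 CPM in the MDA-MB468 libraries and at 0.189 CPM or less in BT549, and VIM between 864 and 1414 CPM in BT549 and at 8.94 CPM or less in MDA-MB468. Of the markers of blood and endothelial cells, CD3E and HBB were at 0 throughout and PTPRC was at 0.756 CPM or less. The sum over that list was 47.4, 20.6, 14.2 and 6.60 CPM in MDA-MB468 parental control, parental Acetalax, CE control and CE Acetalax libraries and from 1.44 to 2.94 CPM in BT549. It consisted mostly of CD14 in MDA-MB468 and fell there along with the rise of ABCC2 and ABCC3 described next, and its part in those results was not tested. BT549 CE cells also differed from their parental cells in markers of the lines, with SPARC at 3447 against 439 CPM and KRT8 at 34.4 against 1.25 CPM in the control libraries. The other mesenchymal markers were lower there, with VIM at 864 against 1327 CPM, FN1 at 592.5 against 1629 CPM and ZEB1 at 58.5 against 86.1 CPM. Of the other epithelial markers, KRT18, KRT19 and CDH1 were higher. EPCAM was lower, at 0.0369 against 0.189 CPM, near the limit that a count of 0 allows. The epithelial list summed to 87.5 CPM in CE control and 8.99 CPM in parental control cells, while the mesenchymal markers did not move together.

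**Figure D1:**
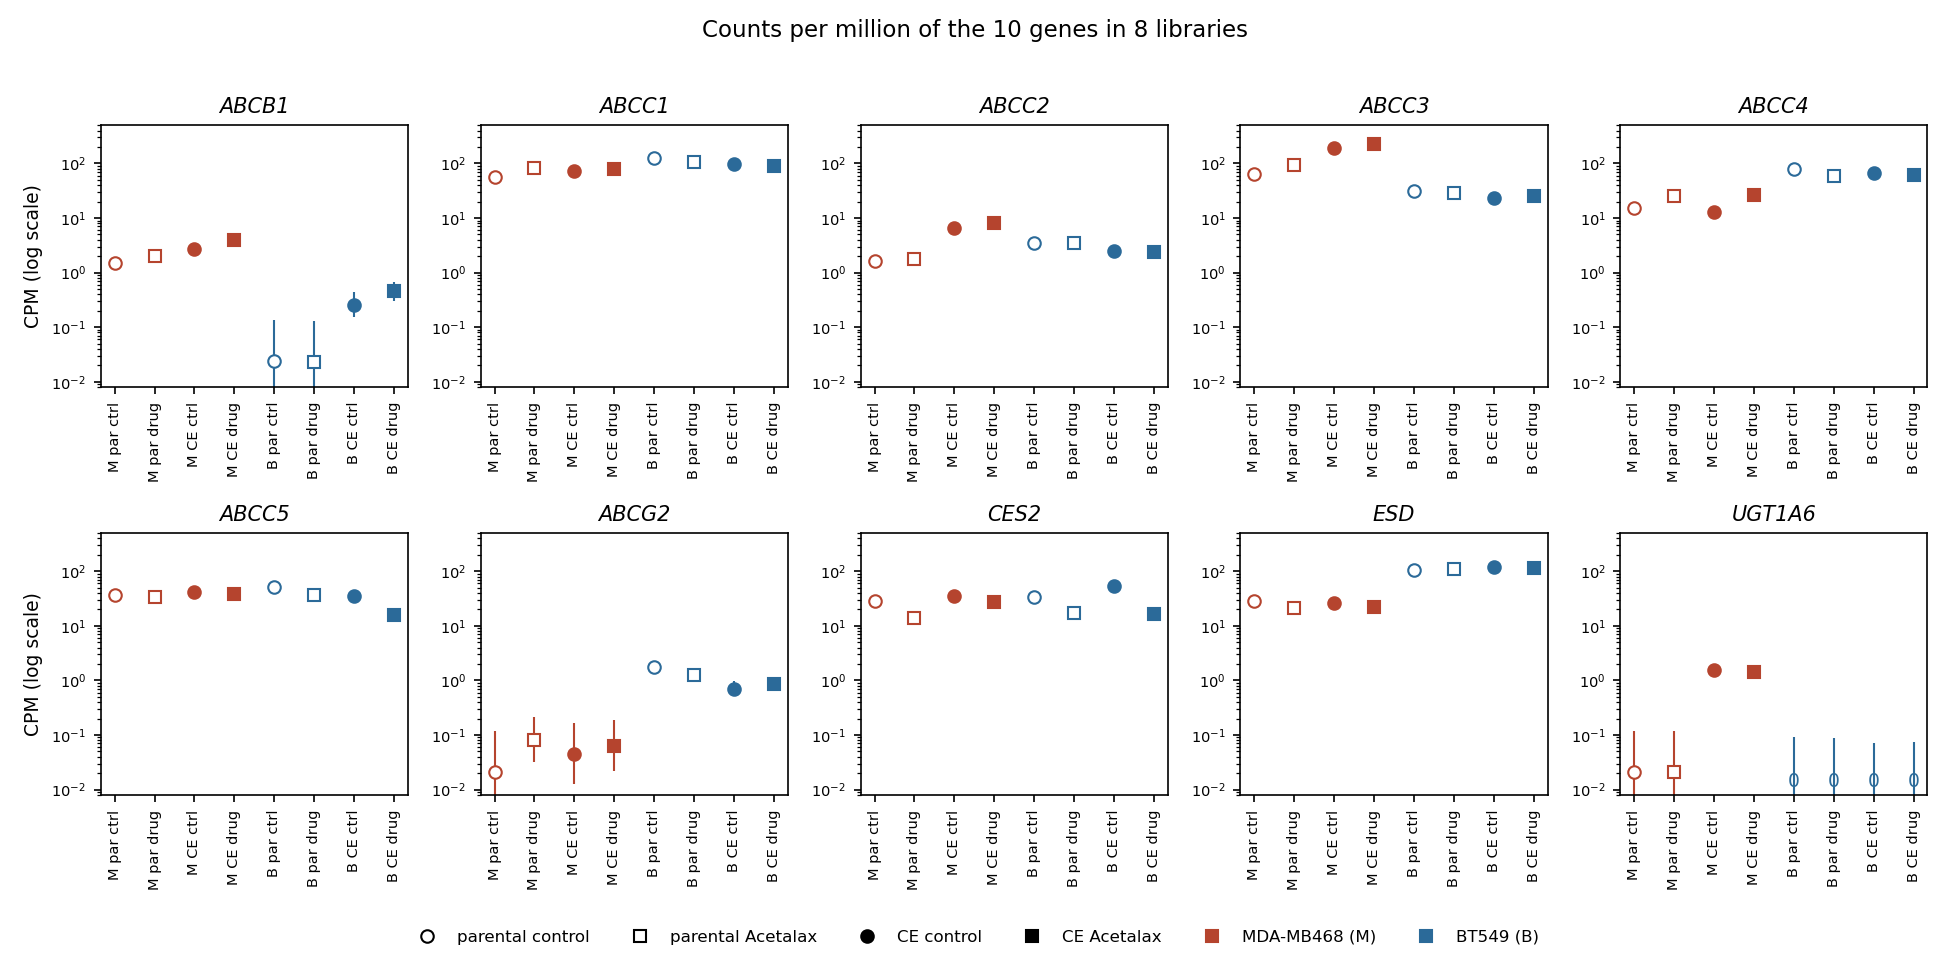
CPM (log scale) of each of the 10 genes in the 8 libraries, in red for MDA-MB468 (M) and in blue for BT549 (B), with open symbols for parental and filled symbols for CE cells, circles for control and squares for Acetalax. Vertical lines are 95% Wilson intervals for counting error, and a 0 marks a library without counts; ABCC2, ABCC3 and UGT1A6 stood higher in both MDA-MB468 CE libraries, and CES2 stood lower in the Acetalax library than in the control library of every background.

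The levels of the 10 genes were first ordered within each library per length of exon, as FPKM (CPM per kilobase of merged exons). In BT549, ESD was the highest of the 10 in all 4 libraries, from 30.5 to 34.7 FPKM, and ABCC1 the next, from 10.2 to 14.3 FPKM. In MDA-MB468 ABCC3 led in 3 of 4 libraries. ESD led in the parental control library with 8.06 FPKM, followed by ABCC3 with 6.67 FPKM and ABCC1 with 6.49 FPKM, a pair that lay closer together than the control and Acetalax libraries of either gene. In the parental Acetalax library ABCC3 had 9.86 FPKM, ABCC1 9.40 FPKM and ESD 5.92 FPKM. In CE cells ABCC3 led with 20.0 FPKM in control and 23.9 FPKM in Acetalax libraries, and ABCC1 followed with 8.42 and 9.01 FPKM. At the lower end stood ABCC2, ABCB1, ABCG2 and UGT1A6, none of which passed 1.02 FPKM in any library.

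The 2 lines differed in most of these genes. The CPM values of the 4 MDA-MB468 libraries did not overlap those of the 4 BT549 libraries for 5 of the 8 members with a mean of at least 1 CPM, against 56.2% of the 14030 such genes. ABCG2 and UGT1A6 passed the filter on low counts through 1 line alone and are left out of the count of calls. With edgeR's quasi-likelihood test, 5 of the other 8 members differed between the lines, against 68.3% of all 19693 genes tested. Both shares lie near those of all genes, so the members were not apart from the rest in this respect. Higher in MDA-MB468 were ABCB1, by 4.50 on the log2 scale (SE 0.29, edgeR adjusted p = 4.53e-06), and ABCC3, by 2.09 (SE 0.13, edgeR adjusted p = 3.73e-06). Lower in MDA-MB468 were ESD, with a fitted log2 difference of -2.40 (SE 0.12, edgeR adjusted p = 1.19e-06), ABCC4 with -1.95 (SE 0.24, edgeR adjusted p = 0.000189) and ABCC1 with -0.69 (SE 0.13, edgeR adjusted p = 0.00194). ABCG2, a xenobiotic exporter of epithelial barriers, had a fitted difference of -4.45 (SE 0.41, edgeR adjusted p = 3.32e-05). UGT1A6 passed as well but had no counts in BT549, so no fold is given. ABCC2, ABCC5 and CES2 did not pass. The 4 libraries of a line come from related populations, so these p-values measure only the spread between them.

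Next, CE cells were compared with parental cells, which asks what differed in cells that had adapted to the drug before they met it again. In the control libraries, 2 of the 8 members with a mean of at least 1 CPM, ABCC2 and ABCC3, stood at least 2-fold higher in MDA-MB468 CE than in parental cells, against 6.35% of 13868 genes past 2-fold in either direction. In BT549 the same held for 1 of 8, ABCB1, against 16.4% of 13887 genes. With 1 library on each side these counts have no test. Over both lines together, with the lines as replicates and the control libraries alone, edgeR called 0 of 18377 genes (0% of those tested, with 610 at an unadjusted p under 0.05, and 49 called by DESeq2), and neither tool called any of the 9 members it tested. UGT1A6 did not reach the filter on low counts in that fit. The fits within a line took the control and the Acetalax library of a background as 2 libraries of 1 population, after a common Acetalax term.

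**Figure D2:**
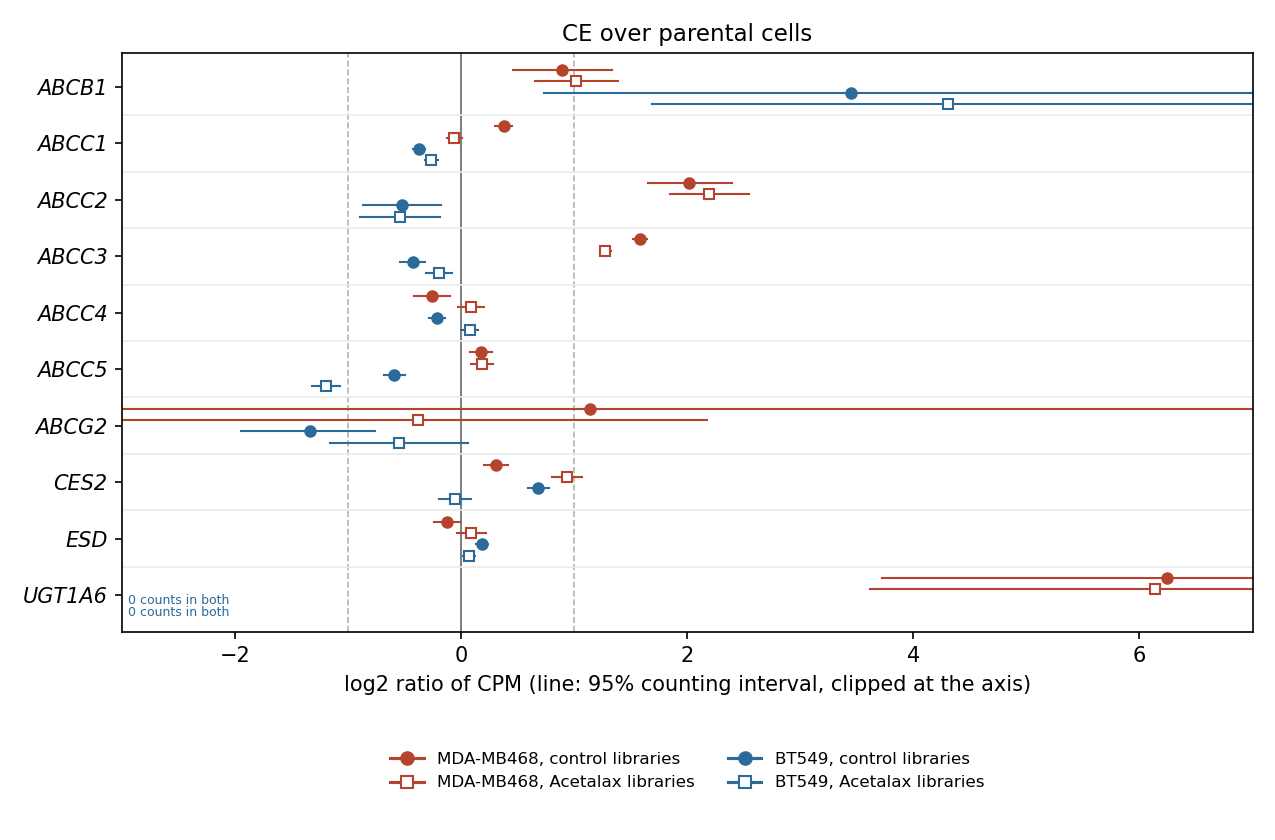
Log2 ratio of CPM, CE over parental cells, for the 10 genes (rows) in MDA-MB468 (red) and BT549 (blue), with filled circles for the control libraries and open squares for the Acetalax libraries. Horizontal lines are exact 95% counting intervals, cut at the edge of the axis, and dashed lines mark 2-fold; ABCC2 lay at 2.02 in MDA-MB468 and at -0.52 in BT549 control libraries.

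ABCC2 (MRP2, ENSG00000023839) is a pump of glucuronide and glutathione conjugates that in liver and gut sits in the apical membrane. Its plus-strand gene spans bases 101542489 to 101611949 of chromosome 10 (hg19, the build of all gene positions given here). In MDA-MB468 it had 79 counts (1.63 CPM, interval 1.30 to 2.03) in parental control, 85 (1.75 CPM) in parental Acetalax, 290 (6.57 CPM, interval 5.86 to 7.37) in CE control and 380 (7.99 CPM) in CE Acetalax libraries. In BT549 it had 150 counts (3.55 CPM), 154 (3.54 CPM), 134 (2.47 CPM) and 123 (2.43 CPM) in the same order. Both MDA-MB468 CE libraries stood above the other 6, and both BT549 CE libraries below their parental libraries. The ratio of CE to parental control was 4.04 in MDA-MB468, a log2 ratio of 2.02 (interval 1.65 to 2.39), and -0.52 on the log2 scale in BT549 (interval -0.87 to -0.18). Between the Acetalax libraries the log2 ratios were 2.19 and -0.54. ABCC2 was called higher within MDA-MB468 with a fitted log2 change of 2.07 (SE 0.24, edgeR adjusted p = 0.00794). The difference between the lines also passed, at 2.51 on the log2 scale (SE 0.34, edgeR adjusted p = 0.00537).

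ABCC3 (MRP3, ENSG00000108846), on chromosome 17 from 48712138 to 48769613 on the plus strand, exports glucuronides across the basolateral membrane. It was the most abundant member per length in MDA-MB468 CE cells. Its levels in MDA-MB468 were 64.1 CPM in parental control, 94.8 in parental Acetalax, 192.0 in CE control and 229.3 in CE Acetalax libraries, from 3119 to 10904 counts. In BT549 they were 31.6, 28.4, 23.5 and 24.8 CPM. The CE libraries of MDA-MB468 thus lay above both parental libraries, of which the treated one was the higher, and those of BT549 lay below. The ratio of CE to parental control was 2.99 in MDA-MB468, a log2 ratio of 1.58 (interval 1.52 to 1.64), and -0.43 on the log2 scale in BT549 (interval -0.54 to -0.32). Within MDA-MB468 the fitted log2 change was 1.38 (SE 0.18, edgeR adjusted p = 0.0102), and the difference between the lines was 1.61 (SE 0.25, edgeR adjusted p = 0.0103).

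UGT1A6 (ENSG00000167165) was the third member called higher in MDA-MB468 CE cells. It had 1 count in each parental library and 69 counts in each CE library, which is 0.0206 CPM in both parental libraries and 1.56 and 1.45 CPM in CE control and CE Acetalax libraries. In BT549 it had 0 counts in all 4 libraries. The ratio of CE to parental control in MDA-MB468 was 76.0, with a wide counting interval on the log2 scale from 3.72 to 11.57, because it rests on 1 parental count. The change was called within the line (edgeR adjusted p = 0.0132), and the difference from BT549 could not be estimated. UGT1A6 passed the filter on low counts through these CE libraries alone. It is therefore left out of the count of calls. Of the other 9 members, 2 were called higher within MDA-MB468, against 0.503% of the 19693 genes tested.

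UGT1A6 spans bases 234600253 to 234681946 of chromosome 2 (plus strand), inside the UGT1A locus, where several first exons are each joined to the same later exons. Of its merged exon length, 44.2% overlaps other genes on the same strand and 20.6% genes on the opposite strand. Reads over the shared exons fit several identifiers, and STAR counts a read only where it overlaps exactly 1, so the counts under any UGT1A symbol come from the parts not shared. The table holds 7 UGT1A identifiers. Their summed counts were 3, 1, 162 and 173 in MDA-MB468 parental control, parental Acetalax, CE control and CE Acetalax libraries, and 2, 3, 5 and 3 in BT549. UGT1A7 had 1, 0, 28 and 22 counts in MDA-MB468 and from 1 to 4 in BT549. The identifier ENSG00000241635, which the table names UGT1A8 and the annotation used here for lengths names UGT1A1, had 1, 0, 65 and 80 counts in MDA-MB468 and 1 or 0 in BT549. Both passed the filter on low counts, like UGT1A6, through the MDA-MB468 CE libraries alone, so their calls within that line (edgeR adjusted p = 0.0273 for UGT1A7 and 0.00769 for UGT1A8 as the table names it) add no support. Which UGT1A transcripts the reads came from cannot be told from these counts.

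**Figure D3:**
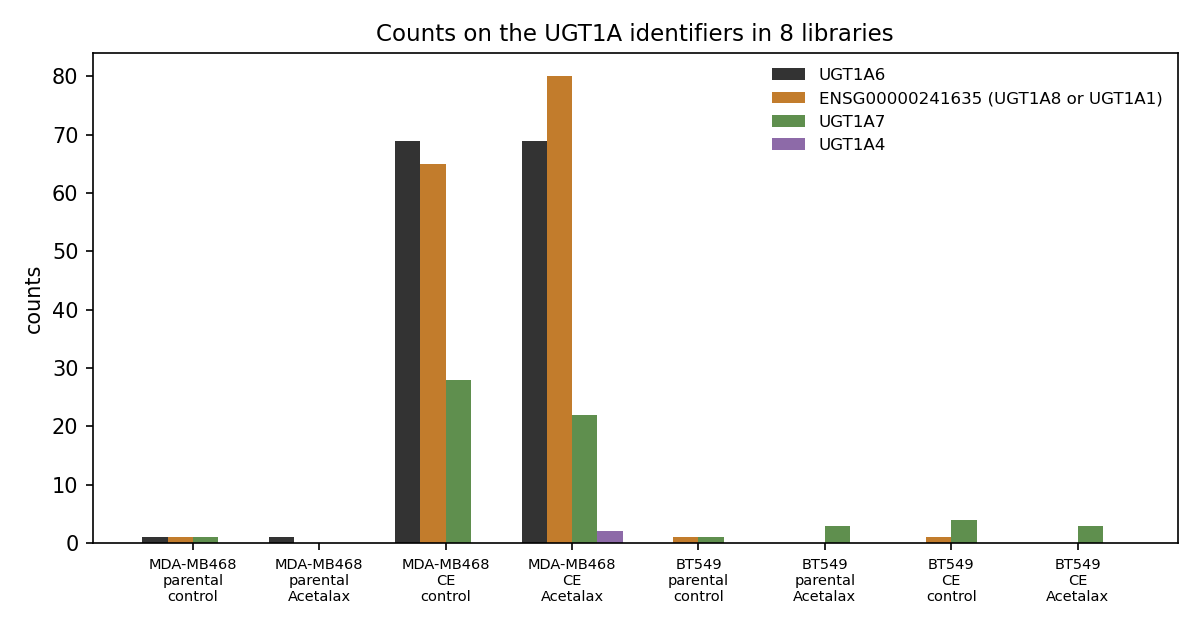
Counts on the 4 UGT1A identifiers that had any count, as bars for each of the 8 libraries. UGT1A6 rose from 1 to 69 counts and ENSG00000241635 from 1 to 65 between the MDA-MB468 parental and CE control libraries, while BT549 libraries held at most 4 counts on any of them.

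UGT1A genes and several exporters are known targets of the aryl hydrocarbon receptor (AHR) and of NRF2 (gene NFE2L2), so the 250 bases before the RefSeq start sites of the members were searched on both strands for the core of the xenobiotic response element (GCGTG), the core of the antioxidant response element (TGACNNNGC) and a GC box (GGGCGG). The promoter table (RefSeq, build GRCh38.p14) held 15 start sites for 8 of the members and none for ABCC1 or ABCC3, which were not searched. Of all 35116 promoters in it, 32.2% had GCGTG, 10.9% TGACNNNGC and 42.6% GGGCGG, and of the 15 of members 8, 2 and 5 did. Start sites are not independent, since ABCG2 alone has 5, some with overlapping bases that repeat a match. By gene, 6, 2 and 4 of the 8 members had a match at any start site. The shares are not adjusted for base composition, which for the members ran from 39.2% to 80.4% G and C. For UGT1A6, ABCC2, ABCB1 and CES2, the members with a start site there whose CE or Acetalax change was called, start sites are printed. They run 5′ to 3′ on the strand of the gene, with matches in capitals. ABCB1 and CES2 have 2 start sites each, of which only the one with a match is printed. The first start site of UGT1A6 (chr2:233691452-233691701, plus strand) has GCGTG beginning 200 bases before the start and a GC box, read on the other strand, at 91 bases. Its second (chr2:233692640-233692889, plus strand) has 1 TGACNNNGC at 98 bases, and ABCC2 (chr10:99782390-99782639, plus strand) has none of the 3. A match is a run of letters and not a measured binding site.
UGT1A6 start 1: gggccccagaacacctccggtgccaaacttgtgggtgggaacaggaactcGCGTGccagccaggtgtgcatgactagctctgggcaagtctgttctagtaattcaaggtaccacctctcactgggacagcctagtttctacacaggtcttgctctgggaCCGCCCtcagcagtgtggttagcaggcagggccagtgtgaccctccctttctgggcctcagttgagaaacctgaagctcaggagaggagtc
UGT1A6 start 2: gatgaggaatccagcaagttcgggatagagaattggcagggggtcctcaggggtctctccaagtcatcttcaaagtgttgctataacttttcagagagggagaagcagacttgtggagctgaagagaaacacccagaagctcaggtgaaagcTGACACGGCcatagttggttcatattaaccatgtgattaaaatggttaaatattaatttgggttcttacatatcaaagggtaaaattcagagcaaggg
ABCC2: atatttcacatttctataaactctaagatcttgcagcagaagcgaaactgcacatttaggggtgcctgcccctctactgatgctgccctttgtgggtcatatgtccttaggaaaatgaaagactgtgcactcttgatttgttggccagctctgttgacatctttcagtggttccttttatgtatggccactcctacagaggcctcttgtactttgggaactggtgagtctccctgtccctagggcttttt

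ABCB1 (P-glycoprotein, MDR1, ENSG00000085563), on chromosome 7 from 87133175 to 87342611 on the minus strand, exports a wide range of hydrophobic drugs. It was the member called higher in CE cells of BT549. BT549 had 1 count in each parental library, 14 in CE control and 23 in CE Acetalax, so that the level went from 0.0237 and 0.0230 CPM to 0.258 CPM (interval 0.154 to 0.433) and 0.455 CPM. In MDA-MB468 it had 72 counts (1.48 CPM) in parental control, 97 (2.00 CPM) in parental Acetalax, 121 (2.74 CPM) in CE control and 192 (4.04 CPM) in CE Acetalax libraries. CE libraries were above parental libraries in both lines, but every BT549 library stayed below every MDA-MB468 library. The ratio of CE to parental control was 10.9 in BT549, a log2 ratio of 3.45 with a counting interval from 0.73 to 8.85, and 1.85 in MDA-MB468, a log2 ratio of 0.89 (interval 0.46 to 1.33). Within BT549 the fitted log2 change was 3.88 (SE 0.57, edgeR adjusted p = 0.00453), which rests on 1 count per parental library. It was 1 of 10 members called higher there, against 8.16% of all genes tested. Within MDA-MB468 the fitted 0.91 (SE 0.27) was not called (edgeR adjusted p = 0.21). The difference, MDA-MB468 minus BT549, was -2.96 (SE 0.67, edgeR adjusted p = 0.0434). ABCC2, ABCC3 and ABCB1 were the 3 of 10 members whose CE change differed between the lines, against 6.13% of all genes tested.

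Of 10 genes that lie at least partly within 1 Mb of ABCB1 and reached a mean of at least 1 CPM, 4 were at least 2-fold higher in BT549 CE than in parental control libraries, against 9.43% of 13887 genes, and 0 were at least 2-fold lower. Their log2 ratios began at -0.34 and had a median of 0.75, and no test was made. The 4 were ADAM22 at 4.56, RUNDC3B at 2.22 and TP53TG1 at 1.44 on the log2 scale, and a gene listed at 0 in parental cells. In MDA-MB468 the median was 0.00 with 1 of 10 past 2-fold. For ABCC2 and ABCC3 in MDA-MB468, the medians of the neighbours were -0.05 over 17 genes and 0.12 over 29 genes, with 0 and 3 past 2-fold. The first start site of ABCB1 in the promoter table (chr7:87713296-87713545, minus strand) has none of the 3 motifs. The second (chr7:87600885-87601134, minus strand), which lies downstream of the first, has GCGTG beginning 53 bases before the start.
ABCB1 start 2: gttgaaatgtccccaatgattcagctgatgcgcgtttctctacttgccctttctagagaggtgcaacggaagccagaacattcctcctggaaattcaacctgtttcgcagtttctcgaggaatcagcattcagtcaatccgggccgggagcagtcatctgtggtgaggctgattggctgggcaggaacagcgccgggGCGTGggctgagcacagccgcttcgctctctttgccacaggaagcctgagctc

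The calls within a line rested on few libraries. When each of the 8 libraries was left out in turn, ABCC2 stayed between 1.93 and 2.16 within MDA-MB468 and was called in 5 of 8 fits. It lost its call without the CE Acetalax (edgeR adjusted p = 0.068), parental Acetalax (0.112) or parental control library (0.101) of MDA-MB468, with a range from 0.00464 to 0.112 over these fits. ABCC3, between 1.15 and 1.60, was called in 5 of 8 and lost without parental control (edgeR adjusted p = 0.13), CE Acetalax (0.0952) or CE control (0.0598). UGT1A6, between 5.91 and 6.00 within MDA-MB468, lost its call without any 1 of the 4 MDA-MB468 libraries. It passed the filter on low counts through the CE libraries of that line alone, so its calls in the other fits add no support. ABCB1 within BT549, between 3.54 and 4.22, was called in 7 of 8 and lost without the parental Acetalax library (edgeR adjusted p = 0.0595). The difference between the lines was called in 8 of 8 fits for ABCC2, in 7 of 8 for ABCC3 (lost without MDA-MB468 parental control, edgeR adjusted p = 0.0572) and in 1 of 8 for ABCB1 (kept without BT549 CE control alone, with edgeR adjusted p up to 0.24).

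With edgeR on the 8 libraries, none of the other exporters ABCC1, ABCC4, ABCC5 and ABCG2 was called between CE and parental cells of a line. ABCC1 (MRP1, ENSG00000103222), an exporter of glutathione conjugates on chromosome 16 from 16043434 to 16236931, had log2 ratios of 0.38 in MDA-MB468 and -0.37 in BT549 control libraries. ABCC4 (MRP4, ENSG00000125257), an exporter of cyclic nucleotides and organic anions on chromosome 13 from 95672083 to 95953687, had -0.26 and -0.21. For ABCC5 (MRP5, ENSG00000114770), which also carries cyclic nucleotides and lies on chromosome 3 from 183637722 to 183735803, the ratios were 0.17 and -0.59. Its fitted change within BT549 was -0.77 (SE 0.24, edgeR adjusted p = 0.0785). ABCC5 was called there with DESeq2 (adjusted p = 0.0494), without a filter on low counts (edgeR adjusted p = 0.0117) and without the BT549 CE control library (0.0189), and the adjusted p ran up to 0.328 over the alternatives. ABCG2 (BCRP, ENSG00000118777), on chromosome 4 from 89011416 to 89152474, had 75, 54, 38 and 43 counts in BT549 parental control, parental Acetalax, CE control and CE Acetalax libraries, and 1, 4, 2 and 3 in MDA-MB468. Both BT549 CE libraries were below both parental libraries, and the fitted -0.87 (SE 0.40) was not called (edgeR adjusted p = 0.202). In MDA-MB468, ABCG2 was near the limit that a count of 0 allows, and no change could be seen at that depth.

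Summed over the 7 exporters, the level was 175.9 CPM in MDA-MB468 parental control and 329.0 CPM in CE control cells, and 293.1 and 226.3 CPM in BT549. In the Acetalax libraries the sums were 239.2 and 384.7 CPM in MDA-MB468 and 235.1 and 195.3 CPM in BT549. ABCC3 made up most of the gain in MDA-MB468. These sums compare counts and not molecules, since longer transcripts give more reads.

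The effect of 6 hours of Acetalax was then compared over the 4 backgrounds. CES2 (ENSG00000172831), on chromosome 16 from 66968347 to 66978999 on the plus strand, was the member whose change was called. Its levels were 29.0 CPM in control and 14.2 CPM in Acetalax libraries of MDA-MB468 parental cells, 33.6 and 17.4 CPM in BT549 parental cells, 35.9 and 27.2 CPM in MDA-MB468 CE cells and 53.9 and 16.7 CPM in BT549 CE cells, with 691 to 2926 counts. The treated library was the lower one in 4 of 4 backgrounds. The lowest control library (29.0 CPM, MDA-MB468 parental) stood just above the highest treated one (27.2 CPM, MDA-MB468 CE). The share of all genes with such an order was not counted. The log2 ratios of Acetalax to control were -1.03 (interval -1.16 to -0.89) in MDA-MB468 parental, -0.95 (-1.08 to -0.83) in BT549 parental, -0.40 (-0.51 to -0.29) in MDA-MB468 CE and -1.69 (-1.80 to -1.58) in BT549 CE cells. Over the 4 backgrounds CES2 fell by 0.93 on the log2 scale (SE 0.19, edgeR adjusted p = 0.0431), so the fitted level after Acetalax was 0.526 of that in control libraries.

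**Figure D4:**
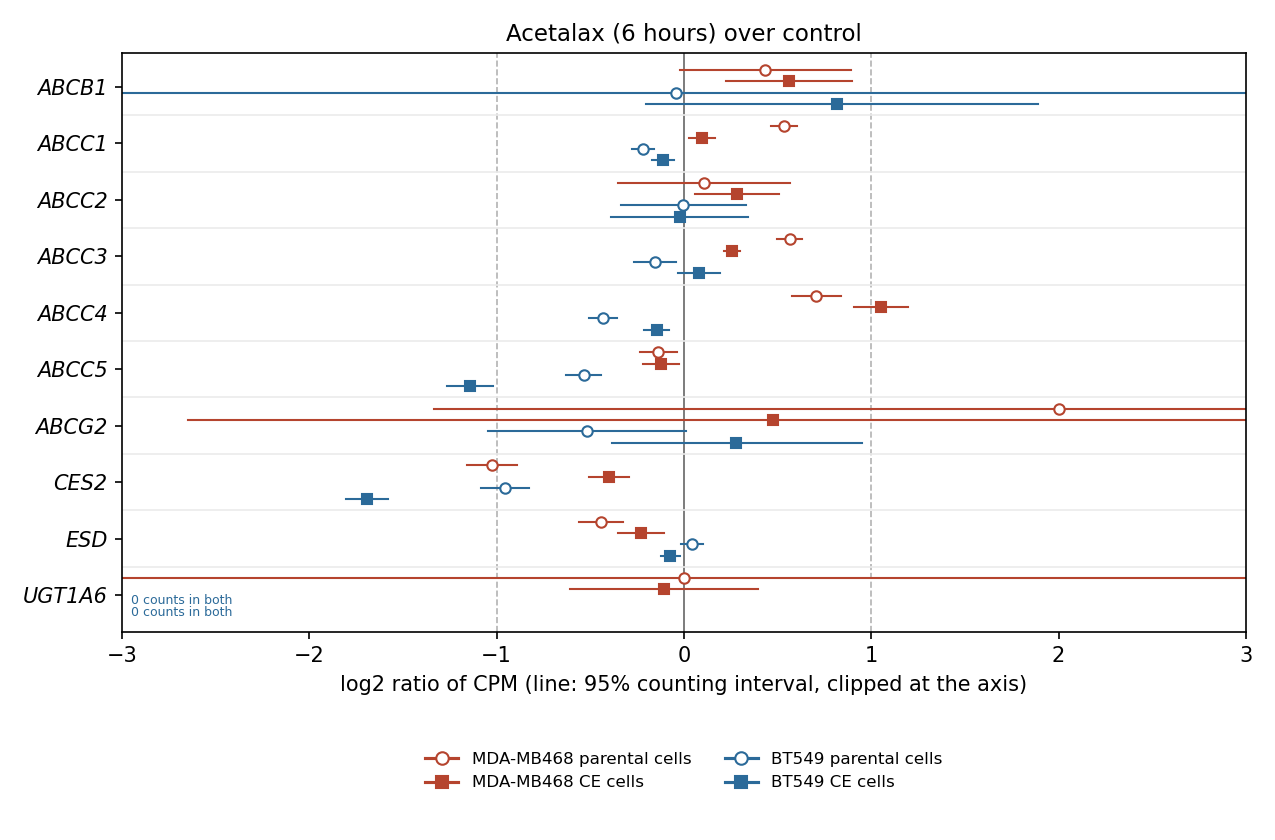
Log2 ratio of CPM, Acetalax over control, for the 10 genes (rows) in parental (open circles) and CE cells (filled squares) of MDA-MB468 (red) and BT549 (blue). Horizontal lines are exact 95% counting intervals, cut at the edge of the axis, and dashed lines mark 2-fold; CES2 lay left of 0 in all 4 backgrounds, from -0.40 to -1.69.

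CES2 was the only member called, 1 of 10, against 2.27% of 19693 genes called lower. The call lay close to the threshold: it was kept without MDA-MB468 CE cells (edgeR adjusted p = 0.0446) and lost without BT549 CE (0.0764), BT549 parental (0.104) or MDA-MB468 parental cells (0.179), with a log2 change from -0.72 to -1.11. Leaving out MDA-MB468 parental cells ended the call for every gene, as 0 of 18967 were then called, with 3491 at an unadjusted p under 0.05. Of the merged exons of CES2, 2.75% overlaps another gene on the same strand and 8.18% a gene on the opposite strand. The strand column used is not stated, and counts near those ends are uncertain.

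Of the esterases among the members, CES2 was the one that stood higher in CE than in parental control libraries of both lines. Its log2 ratios were 0.31 (interval 0.20 to 0.41) in MDA-MB468 and 0.68 (0.59 to 0.77) in BT549. Other ester hydrolases did so as well, among them SIAE (0.83 and 1.62), LIPA (0.28 and 1.58) and PON2 (0.18 and 1.18), while LYPLA1 was lower in both lines (-0.18 and -0.46). For CES2, the CE control libraries enter this ratio and the Acetalax ratio alike, so the 2 are not independent. In the Acetalax libraries the CE to parental log2 ratios of CES2 were 0.93 in MDA-MB468 and -0.06 in BT549, the latter 0.07 with TMM. The fitted CE changes were 0.61 (SE 0.27, edgeR adjusted p = 0.457) and 0.44 (SE 0.27, edgeR adjusted p = 0.34), neither of which was called. A test of whether the Acetalax response differed between CE and parental cells gave -0.01 for CES2 (SE 0.43, edgeR adjusted p = 1). That test called 0 of 19693 genes (0% of those tested, with 91 at an unadjusted p under 0.05 and 0 called by DESeq2), and no member. The first start site of CES2 in the promoter table (chr16:66934221-66934470, plus strand) has GCGTG at 238, 77, 29 and 24 bases before the start, and its second (chr16:66935266-66935515, plus strand) has none of the 3 motifs.
CES2 start 1: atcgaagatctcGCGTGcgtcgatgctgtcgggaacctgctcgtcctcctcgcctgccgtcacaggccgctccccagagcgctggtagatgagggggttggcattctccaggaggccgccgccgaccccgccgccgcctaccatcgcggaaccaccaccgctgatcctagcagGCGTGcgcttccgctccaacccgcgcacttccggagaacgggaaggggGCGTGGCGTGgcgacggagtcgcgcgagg

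ESD (ENSG00000139684), on chromosome 13 from 47345391 to 47371367 on the minus strand, had levels in MDA-MB468 of 28.4, 20.9, 26.0 and 22.2 CPM in parental control, parental Acetalax, CE control and CE Acetalax libraries. In BT549 it had 107.6, 110.7, 122.4 and 116.3 CPM. The treated library was the lower in both MDA-MB468 backgrounds, with log2 ratios of -0.44 and -0.23, and by CPM also in BT549 CE cells with -0.07, which TMM scaling turned to 0.08. BT549 parental cells had 0.04. The fitted Acetalax change of -0.08 (SE 0.11) was not called (edgeR adjusted p = 0.682). The 2 esterases thus had unlike values after the drug, a difference that was not tested.

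Among the exporters, ABCC4 had Acetalax ratios of opposite sign in the lines on total counts, though with TMM scaling the ratio in BT549 CE cells was 0.01. Its levels in MDA-MB468 were 15.5 CPM in control and 25.3 CPM in Acetalax libraries of parental cells, and 12.9 and 26.8 CPM in CE cells. In BT549 they were 79.1 and 58.5 CPM in parental cells, and 68.2 and 61.6 CPM in CE cells. By CPM, both treated MDA-MB468 libraries stood above both controls, and both treated BT549 libraries stood below. The log2 ratios were 0.71 (interval 0.57 to 0.84) and 1.05 (0.91 to 1.20) in MDA-MB468, and -0.43 (-0.51 to -0.36) and -0.15 (-0.22 to -0.08) in BT549. The fitted common change of 0.38 (SE 0.24) was not called (edgeR adjusted p = 0.336). A test of the difference between the lines, added after these values were seen, gave 1.12 on the log2 scale (SE 0.22) and missed the threshold with TMM scaling (edgeR adjusted p = 0.0512). ABCC4 passed it with DESeq2's size factors in edgeR (edgeR adjusted p = 0.0447), without a filter on low counts (0.000152) and with DESeq2 (0.00246). That test called 0 of the 10 members, against 1.78% of 19693 genes.

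ABCC5 was lower after Acetalax in all 4 backgrounds, with log2 ratios of -0.14 and -0.12 in MDA-MB468 parental and CE cells and -0.54 and -1.14 in BT549 parental and CE cells. Its BT549 levels were 52.3 and 36.1 CPM in parental control and Acetalax libraries, and 34.7 and 15.7 CPM in CE cells. The fitted change of -0.39 (SE 0.17) was not called (edgeR adjusted p = 0.185). ABCB1 had log2 ratios of 0.43, 0.56 and 0.82 in MDA-MB468 parental, MDA-MB468 CE and BT549 CE cells, and 1 count on either side in BT549 parental cells. The fitted 0.64 (SE 0.23) was not called (edgeR adjusted p = 0.131). For ABCC1 and ABCC3 the treated library was the higher one in both MDA-MB468 backgrounds. ABCC1 had 0.53 and 0.10 in MDA-MB468 parental and CE cells, and -0.22 and -0.11 in BT549, the last of which was 0.05 with TMM. ABCC3 had 0.56 and 0.26 in MDA-MB468, and -0.15 and 0.08 in BT549. ABCC2 ranged from -0.02 to 0.28 over the backgrounds (its ratios in BT549 were 0.08 and 0.13 with TMM), and UGT1A6 had 69 counts both in the control and in the treated library of MDA-MB468 CE cells.

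By the size of the ratio alone, the members past 2-fold after Acetalax were CES2 in MDA-MB468 parental cells (1 of 8, against 10.6% of all genes), none in BT549 parental cells (0 of 8, against 7.5%), ABCC4 in MDA-MB468 CE cells (1 of 8, against 6.48%) and ABCC5 with CES2 in BT549 CE cells (2 of 8, against 20.1%). Over all genes the median log2 ratio in that last pair was -0.22, and TMM scaling moves every ratio in it up by 0.16. With TMM, CES2 stood at -1.54 and ABCC5 at -0.99 there, and CES2 in MDA-MB468 parental cells stood at -0.97, so the latter 2 were then short of 2-fold.

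Other genes of drug handling were read from lists of related genes. Of 38 other ABC transporters, 28 were tested in the fit of 8 libraries. None was called in MDA-MB468 CE against parental cells, where their median log2 change was 0.01 against 0.02 for all genes. Within BT549, 5 of the 28 were called higher in CE cells, against 8.16% of all genes tested, and 1 lower, against 5.39%. The cholesterol exporter ABCA1 had 1 count in each BT549 parental library, 648 in CE control and 166 in CE Acetalax libraries (edgeR adjusted p = 0.0003). The lipid transporter ABCA7 had 15.7 CPM in parental and 43.8 CPM in CE control libraries of BT549 (fitted log2 change 1.33, SE 0.21, edgeR adjusted p = 0.00592). ABCA10 fell by 1.92 on the log2 scale within BT549 (SE 0.36, edgeR adjusted p = 0.018), and ABCA2 and ABCB8 were higher by 1.06 and 0.74. ABCA1 and ABCA7 also differed between the lines in their CE change (edgeR adjusted p = 0.00113 and 0.0216). They were 2 of the 28, against 6.13% of all genes tested, so the list was not apart from the rest in this test.

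After Acetalax, 4 of the 28 were called lower, against 2.27% of all genes tested, and none higher. The list median was -0.15 against -0.04 for all genes. The sterol exporters ABCA1 and ABCG1 had the largest changes. ABCG1 went from 5.57 to 1.13 CPM in MDA-MB468 parental and from 5.53 to 1.20 CPM in MDA-MB468 CE cells, and had at most 1 count in BT549 (fitted log2 change -2.01, SE 0.45, edgeR adjusted p = 0.0475). ABCA1 went from 1.25 to 0.144 CPM and from 0.702 to 0.0631 CPM in the same backgrounds and from 12.0 to 3.28 CPM in BT549 CE cells (fitted log2 change -2.28, SE 0.37, edgeR adjusted p = 0.0361). ABCA7 fell by 0.71 on the log2 scale (SE 0.14, edgeR adjusted p = 0.0424) and the lysosomal peptide transporter ABCB9 by 0.90 (SE 0.16, edgeR adjusted p = 0.0377). Both were lower in 4 of 4 backgrounds. So was RXRA, partner of the sterol-sensing LXR receptors among others (fitted log2 change -0.47, SE 0.10, edgeR adjusted p = 0.0447). It was the 1 gene called of 10 tested in the list of receptors and factors that induce drug handling genes, against 2.27% of all genes called lower. In the same list the lipid-sensing receptor PPARA was called higher in BT549 CE cells (fitted log2 change 1.67, SE 0.22, edgeR adjusted p = 0.00252). It was 1 of 10 tested, against 8.16% of all genes called higher there, so the list was not apart from the rest.

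Of 16 other carboxylic ester hydrolases tested, 1 was called in MDA-MB468 CE cells, where it was higher, against 0.503% of all genes called higher. It was ACHE, acetylcholinesterase, with 2 counts in each parental library, 28 in CE control and 16 in CE Acetalax (edgeR adjusted p = 0.0311). CES1, the liver carboxylesterase, had 188 counts in parental and 446 in CE control libraries of MDA-MB468, a log2 ratio of 1.39, with no call, and 0 in all BT549 libraries. Within BT549, 4 of the 16 were called higher in CE cells (8.16% of all genes): the lysosomal acid lipase LIPA (63.2 to 188.2 CPM in control libraries), the sialic acid esterase SIAE (4.92 to 15.2 CPM), the paraoxonase PON2 (46.9 to 106.0 CPM) and PAFAH1B3. The cholesteryl ester hydrolase NCEH1 was called lower (1 of 16, against 5.39% of all genes), by a fitted -2.23 (SE 0.27, edgeR adjusted p = 0.00204). None of the 16 was called after Acetalax.

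In the list of glucuronidation and sulfation genes, 15 of 31 in the table were tested. The 2 called in MDA-MB468 CE cells were the UGT1A identifiers given with UGT1A6, which only those libraries brought past the filter. Within BT549, 4 of the 15 were called higher (8.16% of all genes) and 1 lower (5.39%). UGDH, which makes the UDP-glucuronic acid that UGT enzymes use, rose by a fitted 2.41 (SE 0.32, edgeR adjusted p = 0.00294), from 32.0 CPM in parental control to 96.9 CPM in CE control and 235.3 CPM in CE Acetalax libraries. The others higher there were PAPSS1, PAPSS2 and the lysosomal β-glucuronidase GUSB, and UGT8, which makes galactosylceramide, was lower. UGT1A6 itself had no counts in that line.

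Uptake and antiport carriers of organic ions gave 2 calls of 10 tested in MDA-MB468 CE cells, both higher, against 0.503% of all genes. Both belong to the MATE family, which exports organic cations from kidney cells. Neighbouring genes were examined for the members alone. Whether calls in this and the other lists, ALDH3A1 below included, are independent of each other was therefore not tested. SLC47A1 had 4.28 and 3.56 CPM in parental and 13.3 and 13.4 CPM in CE libraries (fitted log2 change 1.74, SE 0.21, edgeR adjusted p = 0.00899). SLC47A2 had 0.411 and 0.432 CPM in parental and 4.10 and 3.60 CPM in CE libraries (3.14, SE 0.46, edgeR adjusted p = 0.0187). In BT549, 2 of the 10 were called lower (5.39% of all genes) and 1 higher (8.16%). SLC47A1 was lower in CE cells (-0.78, SE 0.21, edgeR adjusted p = 0.0475), as was SLC22A4, and the prostaglandin carrier SLCO2A1 was higher (3.95, SE 0.30, edgeR adjusted p = 0.00021). The CE change differed between the lines for 4 of the 10, against 6.13% of all genes tested. On the log2 scale, MDA-MB468 minus BT549, it differed by 2.52 for SLC47A1, 3.86 for SLC47A2, 3.28 for SLC22A4 and -2.86 for SLCO2A1.

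Of 7 AHR target genes, all tested, ALDH3A1, an aldehyde dehydrogenase, was the 1 called in MDA-MB468 CE cells, against 0.503% of all genes called higher. It had 7.90 and 5.39 CPM in parental control and Acetalax and 66.5 and 51.7 CPM in CE control and Acetalax libraries, a fitted log2 change of 3.13 (SE 0.23, edgeR adjusted p = 0.00112). Within BT549 it was called lower, by -1.22 (SE 0.26, edgeR adjusted p = 0.0213), and the cytochrome CYP1B1 was called higher, by 1.08 (SE 0.27, edgeR adjusted p = 0.0371). In BT549, 5.39% of all genes tested were called lower and 8.16% higher. Acetalax raised CYP1B1 by a fitted 1.12 (SE 0.19, edgeR adjusted p = 0.0367) and TIPARP by 1.40 (SE 0.25, edgeR adjusted p = 0.0379), both higher in 4 of 4 backgrounds. They were 2 of 7 called higher, against 536 of 19693 genes. CYP1A1 went from 6.93 to 94.0 CPM and from 5.07 to 60.0 CPM in MDA-MB468 parental and CE cells, and from 1.47 to 1.75 and 0.701 to 1.27 CPM in BT549. Its change over the 4 backgrounds was not called (edgeR adjusted p = 0.063), and the difference between the lines was (3.09 on the log2 scale, SE 0.30, edgeR adjusted p = 0.0115). CYP1A1 was the 1 of 7 called for that difference, against 1.78% of all genes tested. In control libraries AHR and NFE2L2 had log2 ratios of CE to parental cells between -0.24 and -0.01 in both lines, and neither was called.

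The genes most like ABCB1 and ABCC2, which had the largest summed sizes of the CE log2 ratios over both lines among the 8 members with a mean of at least 1 CPM, were sought by the Pearson correlation of log2(CPM + 1) over the 8 libraries among 14029 genes. The libraries share lines and backgrounds, so the coefficients are descriptions. AMPD3 (0.992), C11orf35 (0.991) and ADPRHL2 (0.991) came first for ABCB1. For ABCC2 these were EIF2S3 (0.978), AKR1B1 (0.955) and EIF2S3L (0.940), the last of which is a near copy of the first. AKR1B1, aldose reductase, had 94.4 and 92.2 CPM in MDA-MB468 parental and 461.7 and 453.9 CPM in CE libraries, and between 111.4 and 130.2 CPM in BT549.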

How the data were processed

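Polyadenylated RNA of 8 libraries, 1 per condition, was converted with a directional kit from 800 ng of total RNA and read as pairs of 101 bases. The authors used STAR (2.7.11b in the submitters' processing notes) for alignment to hg19 and deposited the raw counts of its GeneCounts option, in which a read is counted only where it overlaps exactly 1 gene. The annotation and the strand column are not given in the sources used here. Its 58154 rows hold 55679 gene identifiers, of which 1392 are repeated and were used 1 time (3 of these have repeats that differ).

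Groups were taken from the sample titles, and doses and times from the study's methods. CPM was computed on the total of gene counts, and FPKM with merged exon lengths of an hg19 GENCODE annotation, which matched 55663 identifiers. A log2 ratio between 2 libraries has an exact (Clopper-Pearson) conditional counting interval, and a CPM has a Wilson interval, both at 95%. PCR reads are not independent molecules, so these cover counting error only. Past 2-fold means a log2 ratio of at least 1 in size, counted over genes whose mean reached 1 CPM. The neighbours of a gene are genes that lie at least partly within 1 Mb of it.

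Tests used edgeR 4.0.16 (R 4.3.3; quasi-likelihood, TMM, filterByExpr, Benjamini-Hochberg over all genes tested, threshold 0.05). In the fit of 8 libraries, background (4 levels) and Acetalax left 3 residual degrees of freedom. Line and CE in the control libraries left 1, and each fit for a difference of Acetalax responses, with 1 term more, left 2. A log2 change is CE minus parental, Acetalax minus control or MDA-MB468 minus BT549. No separate cultures per condition are named, so p-values measure only the spread between these libraries. The scripts were tested on simulated data. Alternatives were DESeq2 1.42.0, its size factors in edgeR, no filter on low counts, a pseudocount of 1 on CPM or FPKM, a mean of at least 5 CPM, and leaving out backgrounds or libraries in turn.

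The members and gene lists were chosen with earlier results of these data known. Named are all members, the genes of each other list that passed a test or examples with the largest ratios in 1 direction, and the 3 genes most like each of the 2 members, of those with a mean of at least 1 CPM, with the largest summed CE ratios. CES1, AHR, NFE2L2, CYP1A1, the neighbours and the markers compared between BT549 CE and parental cells were named after their values were seen. UGT1A3, UGT1A5 and PECAM1 are not analysed here. Not every gene that passed is reported here.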

Additional observations from a re-analysis of the deposited data

Results flagged for a closer look

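The CE change of 3 of the 10 members differed between MDA-MB468 and BT549 in the test of the difference itself. ABCC2 differed by 2.51 on the log2 scale (MDA-MB468 minus BT549, SE 0.34, edgeR adjusted p = 0.00537): its fitted change was 2.07 in MDA-MB468 and -0.44 in BT549. ABCC3 differed by 1.61 (SE 0.25, edgeR adjusted p = 0.0103), with 1.38 and -0.23. ABCB1 differed by -2.96 (SE 0.67, edgeR adjusted p = 0.0434), with 0.91 and 3.88, the latter resting on 1 count in each BT549 parental library. Without 1 library in turn, the difference was called in 8 of 8 fits for ABCC2, 7 of 8 for ABCC3 and 1 of 8 for ABCB1 (edgeR adjusted p up to 0.24). Each line stands for 1 CE selection, so a difference between the lines and a difference between selections cannot be told apart. No group had the 4 samples that a check for an outlying sample needs.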

How the results depend on the processing

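The labels give no replicate numbers to block by, and in the fit for Acetalax each treated library was set against the control library of its own background. Of the main values recomputed under an alternative, 95 stayed within 1.5 times and 61 did not; the cause was not tested. Of the values of single members, 626 were counted as kept. For a fitted change, kept means the same sign and the same side of the threshold. For a log2 ratio of 2 libraries, it means a value within the counting interval, whatever its sign. Another 34 values turned in sign, all of them values that were not called. Log2 ratios of 2 libraries that were under 1 in size could not enter these 34. Members past 2-fold numbered 7 over the 6 pairs. They were 4 on log2(CPM + 1), 2 on log2(FPKM + 1) and 11 among all genes with at least 1 count. In the Acetalax pair of MDA-MB468 parental cells, the 1 member past 2-fold became 0 with TMM, DESeq2 size factors or a pseudocount and 2 without a minimum. In BT549 CE cells the 2 became 1 with TMM or log2(FPKM + 1), and in MDA-MB468 CE cells the 1 became 0 with a pseudocount. For CE over parental control, the 2 members of MDA-MB468 became 1 on log2(FPKM + 1) or with a minimum mean of 5 CPM and 4 without a minimum, and the 1 of BT549 became 0 with a pseudocount or that mean and 2 without a minimum.

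In the fits, DESeq2 called more genes than edgeR: 49 against 0 for CE in both lines, 2913 against 984 for Acetalax, 780 against 311 for CE within MDA-MB468, 2108 against 1208 for its difference between the lines and 941 against 351 for the difference of the Acetalax responses between the lines. With every gene of at least 1 count, edgeR called 45, 3585, 1135, 2395 and 1632 in that order, and 3 for the Acetalax response in CE against parental cells. DESeq2 and the fit without a filter called 2 members within BT549, ABCC5 beside ABCB1, and with DESeq2 size factors in edgeR they called 1 member, ABCC4, for the Acetalax response between the lines. With a background left out, Acetalax gave 0 to 554 calls and 0 to 1 member. With a library left out, a choice made after seeing the data, CE within MDA-MB468 gave 81 to 471 calls and 0 to 3 members, within BT549 1030 to 2418 calls and 0 to 2 members, and the difference 537 to 1265 calls and 1 to 4 members. Without a library the lone sample left in its background is assumed to vary like the others. The members counted within MDA-MB468 include UGT1A6, which passed the filter on low counts through the CE libraries of that line alone.

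Values that turned in sign without a library or background ranged as follows. For CE within MDA-MB468 they were -0.11 to 0.35 for ABCC5, -0.64 to 1.25 for ABCG2, -0.67 to 0.32 for ABCC4, -0.18 to 0.39 for ABCC1 and -0.27 to 0.13 for ESD. Within BT549 they were -0.44 to 0.60 for ABCC4, -0.43 to 0.039 for ABCC1 and -0.45 to 0.076 for ABCC3. For the difference they were -0.28 to 0.59 for CES2 and -0.72 to 0.33 for ABCC4. For Acetalax they were -0.048 to 0.65 for ABCG2 and -0.14 to 0.026 for ESD. With the Acetalax libraries in place of the controls, CE in both lines gave -0.11 for ABCC1 and 0.14 for ABCC4. ABCC4 within BT549 was 0.015 with DESeq2, 0.016 with its size factors and 0.024 with no filter. UGT1A6 was 0.021 for Acetalax and 0.029 for its response in CE against parental cells with DESeq2, and CES2 was 0.022 for that response with DESeq2 and with its size factors and 0.043 without a filter. ABCB1 in BT549, ABCG2 in MDA-MB468 and UGT1A6 outside MDA-MB468 CE cells had at most 23, 4 and 1 counts per library, which limits what can be seen of them.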
